A study of Rattus norvegicus with 12 samples.

Results

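The remote left ventricle was compared between day 56 after ligation of the left anterior descending coronary artery, the latest time of the series, and a sham operation. The comparison rests on 4 of the 12 arrays, chosen by their labels alone, with 1 array of each operation per condition, diabetes and no diabetes. All were male Sprague-Dawley rats. At 8 weeks of age they received either 1 injection of streptozotocin at 65 mg/kg, which destroys insulin-producing beta cells, or citrate buffer, and they were operated on 10 weeks later. Tissue came from the remote zone of the ventricle's free wall. Each array held RNA pooled from 3 rats, so that a condition had 1 sample per time point. The labelled age was 18 weeks on both sham arrays, 26 weeks on the diabetic day 56 array and 22 weeks on the non-diabetic one. An age of 22 weeks is also that of the day 28 arrays, while the protocol of the non-diabetic array gives 8 weeks after ligation, which was followed here. The sham arrays carry the same tissue label as the ligated ones, which mentions an infarct, where their protocol describes a sham operation. No sham array was of the age of the day 56 arrays, so time after ligation, age and duration of diabetes cannot be told apart. The sources used here do not give the interval between sham operation and death.

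The remote zone is muscle that keeps its blood supply but carries the load of the lost segment. In the weeks after an infarct its cardiomyocytes enlarge and its interstitium gains matrix, while the inflammatory cells of the first days give way to resident populations. Natriuretic peptides, collagens, calcium-handling proteins and immune genes are commonly followed there. Streptozotocin diabetes is known for moving cardiac fuel use from glucose to fatty acids.

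Gene levels are intensities on a linear scale that has no unit of molecules. Differences are given as log2(intensity + 16), on which 1 is a 2-fold difference and changes of dim genes come out too small. Probe sets brighter on average than the 40th percentile were kept, 18625 in all, which hold 10623 genes. Intensity pairs below are in the order non-diabetic, diabetic. Levels are compared only within a probe set, never between genes.

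One array outside the comparison stood close to it. The diabetic day 28 array lay near both day 56 arrays in many genes, while the non-diabetic day 28 array lay near or beyond sham. Across genes, the diabetic minus non-diabetic difference at day 28 correlated with the day 56 minus sham difference at a Pearson r of 0.483. The corresponding values were 0.0225 at day 1, -0.0948 at day 7 and -0.117 at day 14. The points of these correlations are genes of single arrays, which are not independent, and no p is given. Both pairs enter the spread used for testing, and values with and without the day 28 pair are therefore given. Signs of RNA quality differed in part along the same arrays. The log2 difference between the 3' and 5' beta-actin probe sets was 0.50 and 0.48 on the sham arrays and 0.41 and 0.37 at day 56, against 0.59 and 0.38 at day 28. For GAPDH it was 0.24 and 0.36 after sham, 0.29 and 0.11 at day 56 and 0.48 and 0.24 at day 28, and for hexokinase 1.37 and 1.46, 1.33 and 1.24, and 2.24 and 1.05. The 5' hexokinase probe set read 29.2 and 31.6 after sham, 49.5 and 82.9 at day 56 and 14.2 and 64.4 at day 28. The part of RNA quality in the differences below was not tested. The non-diabetic day 56 array was dimmer, with an upper quartile of 81.8 against 97.0 in its sham, and 95.9 against 95.4 in the diabetic pair. The median gene accordingly lay 0.32 below sham in the non-diabetic pair and 0.07 below it in the diabetic pair, on the log2 scale. Of cardiomyocyte markers, 9 of 10 were measured, and their summed intensity was 50162 and 45409 on the sham arrays and 51304 and 52454 at day 56. Of 12 skeletal muscle markers 6 were measured, and Myh4, Actn3, Tnnt1, Atp2a1 and Pvalb were under the filter on dim probe sets. The 11 with a probe set, dim ones included, had a summed intensity of 12950 and 12441 after sham and 16506 and 12898 at day 56. Of the 6 measured, 2 were above their own sham in both conditions and 1 below, beside 18.2% and 51.2% of all genes. The medians of the 6 were 0.27 and 0.06. The 2 above were the measured fast myosin genes. Myh1 read 3259 and 2882 and then 5314 and 3694, with 1 of its 4 other probe sets of opposite sign, and Myh2 read 40.8 and 34.4 and then 91.9 and 66.6. Their part in the muscle genes below was not tested.

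No probe set passed the test of day 56 against sham. With limma fitted to all 12 arrays and Benjamini-Hochberg adjustment, 0 of 18625 probe sets (0%) had an adjusted p under 0.05, the smallest adjusted p was 0.0844, and 3062 had an unadjusted p under 0.05. The spread in this test is that of the gap between the 2 conditions from 1 time point to the next, with 5 residual degrees of freedom, and not a spread between rats. Its p-values therefore measure only how these 12 arrays vary. Leaving out the day 28 pair gave 762 probe sets, 451 higher (2.42%) and 311 lower (1.67%). Leaving out the diabetic day 56 array gave 6. All differences below are therefore descriptions of single pools unless a p is attached, and no verb of change is meant by "higher" or "lower".

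Counted by size, 44 genes were higher by at least 1 on the log2 scale in both conditions, 0.414% of 10623, and 97 were lower by as much in both, 0.913%. At any size, 1934 genes (18.2%) lay above their own sham array in both conditions and 5436 (51.2%) below it. At the threshold, Cpd and Flnc were just inside with a smaller difference of 1.00 each, and Synpo2l and Stat6 just outside with 0.99. Among lower genes Ms4a6bl1 and then LOC100911508 (-1.01) were just inside, and C9h6orf226 and then LOC103691468 (-0.99) just outside. With each pair counted by itself, 116 genes were higher and 729 lower by at least 1 in the non-diabetic pair, against 169 and 239 in the diabetic pair. These counts include the 44 and 97 genes. The 44 higher genes had adjusted p-values of 0.0877 to 0.265 and the 97 lower genes 0.0877 to 0.391 in limma, all from the contrast that chose them. That sham and day 56 arrays do not overlap in such genes follows largely from how they were chosen.

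**Figure D1:**
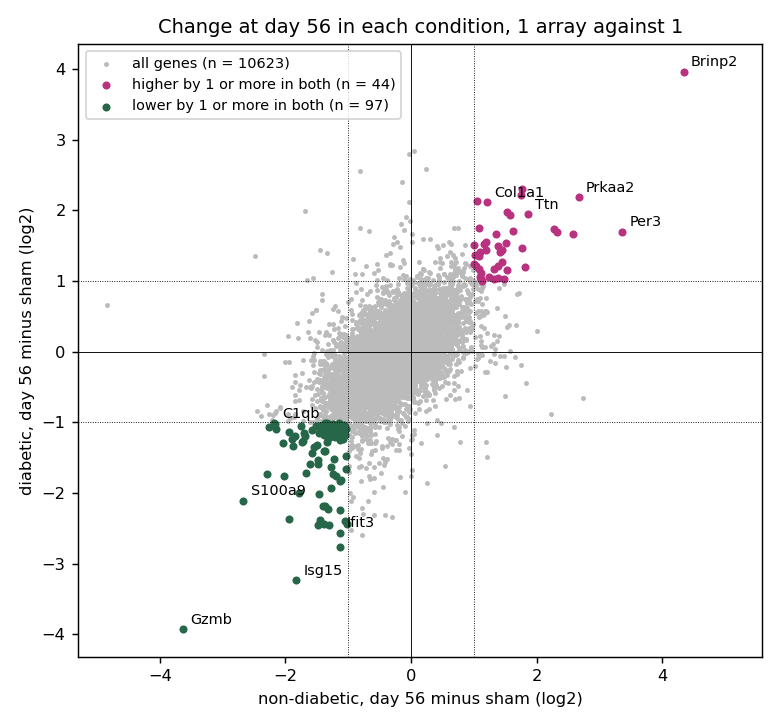
Day 56 minus sham on the log2(intensity + 16) scale for each of 10623 genes, non-diabetic pair on the x axis and diabetic pair on the y axis, 1 array against 1 in each. The 44 genes at or above 1 in both pairs and the 97 at or below -1 in both are coloured, with Brinp2 and Gzmb farthest out in the 2 directions, and dotted lines mark a difference of 1.

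Of the 30 gene lists, the interferon-stimulated genes had the lowest median when both pairs were averaged. These genes encode antiviral effectors and the transcription factors that switch them on. Of 27 listed, 21 were measured, and 19 of the 21 were below their own sham array in both conditions, beside 51.2% of all genes. The median difference was -1.05 in non-diabetic and -1.99 in diabetic rats, beside -0.32 and -0.07 over all genes. Lower by at least 1 in both were 10 of the 21, beside 0.913% of all genes. After quantile normalization the mean of the pairs had a median of -1.41, beside -1.46 without it. Against the same sham arrays the list's median was -0.64 at day 14 and -0.68 at day 28, beside 0.05 and 0.03 over all genes. No member passed the test with all arrays. When the day 28 pair was left out 10 passed it, all lower, beside 219 lower of all 10623 genes.

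Isg15, a ubiquitin-like protein attached to other proteins after interferon, read 153 and 429 on the sham arrays and 31.4 and 31.3 at day 56. Its difference was -2.53 ± 0.67 (model SE, adjusted p = 0.17 in limma, 0.0284 without the day 28 pair). Over its alternatives the adjusted p ran from 1.99e-20, with the 4 arrays alone, to 0.859. Oas1a, a sensor of double-stranded RNA, read 203 and 348 after sham and 47.4 and 75.4 at day 56, a difference of -1.89 ± 0.38 (limma, adjusted p = 0.0985). Ifit3, which binds foreign RNA with its relatives, read 83.0 and 221 and then 29.0 and 24.2. The sham and day 56 arrays did not overlap in any of these genes, which follows largely from their choice as lower by at least 1 in both conditions. The diabetic sham array was the brightest of the 4 in each.

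Ifi27, a mitochondrial membrane protein induced by interferon, read 3039 and 3008 after sham and 919 and 1349.9 at day 56, a difference of -1.43 ± 0.27 (limma, adjusted p = 0.0937). Irf7, the factor that amplifies type I interferon production, read 493 and 692 and then 176 and 140.2. Irf9, the DNA-binding part of the complex that acts downstream of the interferon receptor, read 124 and 203 and then 44.0 and 60.8. Here, too, every day 56 value lay under both sham values, which again follows largely from a difference of at least 1 in both conditions. Rtp4, Rsad2, Mx2 and Ifi44 followed the same order, with differences of -1.14 to -1.05 in the non-diabetic and -2.76 to -1.81 in the diabetic pair. The members that did not were Ifit1, at 98.2 and 1.97 after sham and 26.6 and 15.5 at day 56, and Ifih1, at 47.1 and 69.1 and then 49.6 and 23.6.

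Promoter sequence for 14 of the 21 measured members was at hand (RefSeq, GRCr8), each a window of 300 bases from 250 before the gene start to 50 after it. The windows of 3 genes are shown because their genes were lower in both conditions and they hold the letters GAAANNGAA, the core of the element that interferon regulatory factors bind, on one of the strands. The stretches are 120 bases ending just before the start, 5' to 3' on the strand of the gene, with matches in capitals.
Oas1a (chr12:41330346-41330465, plus strand): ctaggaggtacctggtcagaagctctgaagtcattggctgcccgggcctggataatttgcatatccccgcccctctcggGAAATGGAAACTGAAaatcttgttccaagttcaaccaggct
Ifit3 (chr1:241527206-241527325, plus strand): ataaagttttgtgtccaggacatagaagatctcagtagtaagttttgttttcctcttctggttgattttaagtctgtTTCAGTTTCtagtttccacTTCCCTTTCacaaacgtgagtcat
Irf7 (chr1:205800024-205800143, minus strand): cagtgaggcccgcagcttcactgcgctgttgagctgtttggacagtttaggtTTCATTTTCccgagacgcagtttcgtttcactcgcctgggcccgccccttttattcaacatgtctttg
In Oas1a 2 overlapping matches lay 41 and 35 bases before the start, in Ifit3 matches on the other strand lay 43 and 24 bases before it, and Irf7 had 1 match 68 bases before it. Searched on both strands, GAAANNGAA was in the windows of 9 of the 14 members (64.3%), of 18 of the 70 lower genes with a window (25.7%) and of 4 of the 31 higher genes with a window (12.9%), beside 2608 of all 27457 windows (9.50%). The letters CACGTG, which clock factors bind, were in 1 of the 31 higher and 7 of the 70 lower windows, TGACTCA of AP-1 factors in 1 and 5, and TTATGTAA of D-box factors in 0 and 1. Over all windows those shares were 6.65%, 4.53% and 0.881%, and 14 windows had matches of different motifs that share a base. These are matches of letters, described without a test, in genes chosen for their level.

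Antigen presentation was lower beside interferon genes. Of 22 measured members of complement and antigen presentation, 20 were below their own sham in both conditions and 5 were lower by at least 1 in both (Psmb9, Psmb8, Tap1, RT1-Db1 and C1qb), beside 51.2% and 0.913% of all genes. The median was -1.01 in non-diabetic and -0.79 in diabetic rats, beside -0.32 and -0.07 over all genes. Psmb9, a subunit of the immunoproteasome that cuts peptides for presentation, read 547 and 594 after sham and 187 and 135 at day 56, a difference of -1.74 ± 0.34 (limma, adjusted p = 0.0937). Its partner subunit Psmb8 read 376 and 451 and then 156 and 122. Tap1, which carries those peptides into the endoplasmic reticulum, read 41.2 and 75.5 and then 11.8 and 16.9, although another of its probe sets had the opposite sign. Of the presenting molecules, the class I gene RT1-A, which is not on the list, read 195 and 189 and then 75.5 and 74.2, and the class II gene RT1-Db1 read 136 and 85.7 and then 53.0 and 30.7. No sham and day 56 values overlapped in these genes, which follows largely from their being lower by at least 1 in both conditions. RT1-T24-3, a class I gene of the same family, read 533 and 1016 and then 127 and 185. Genes of this complex are close copies of one another, and their probe sets may read more than 1 of them.

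Macrophage and monocyte markers were lower together. Of 19 markers 17 passed the filter, Itgam and Ccr2 being under it, and 16 of the 17 lay below their own sham in both conditions, beside 51.2% of all genes. Their median was -1.62 in non-diabetic and -0.70 in diabetic rats, beside -0.32 and -0.07 over all genes. The summed intensity of all 19, dim ones included, was 6036 and 5180 on the sham arrays and 1434 and 3128 at day 56. It was 4384 on the diabetic and 11113 on the non-diabetic day 28 array. In a piece of tissue, fewer cells of a type and less RNA per cell cannot be told apart. Lyz2, the lysozyme of myeloid cells, read 1892 and 1902 after sham and 382 and 1021 at day 56. The complement starter C1qb, made by resident macrophages, read 551 and 458 and then 109.8 and 218, a difference of -1.60 ± 0.37 (limma, adjusted p = 0.137). Its partners had the same order, C1qa with 622 and 489.9 and then 105 and 252, and C1qc with 566 and 464 and then 121 and 264. In each of these, the non-diabetic day 56 array was the lowest of the 4. Tyrobp, the adaptor that signals for myeloid receptors, read 368 and 319.8 and then 77.6 and 122. Cd163, the haemoglobin scavenger receptor of resident macrophages, read 125 and 76.8 and then 20.6 and 67.9, so that the diabetic pair hardly differed, at -0.15, while the non-diabetic pair differed by -1.95. The test of a difference between conditions did not pass for any probe set.

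Among markers of lymphocytes and granulocytes, Gzmb, S100a9 and S100a8 were lower by at least 1 in both conditions. Gzmb, the granule protease of cytotoxic cells, had the largest smaller difference of all lower genes: it read 743 and 604 after sham and 45.5 and 24.9 at day 56, a difference of -3.77 ± 1.17 (limma, adjusted p = 0.203). At day 28 it read 619 on the non-diabetic and 24.0 on the diabetic array. Earlier it read 6.74 and 6.62 at day 1, 126 and 167 at day 7, and 26.8 and 519 at day 14, so that low values were not limited to day 56. Klrd1, a receptor of natural killer cells that is not on the marker list, read 57.1 and 55.9 and then 13.9 and 15.1, and Cd8a, the co-receptor of cytotoxic T cells, 160.3 and 157 and then 67.7 and 90.7. Of 9 measured lymphocyte markers, 7 were below their own sham in both conditions and Gzmb alone by at least 1 in both, beside 51.2% and 0.913% of all genes. Defining markers Cd3d, Cd79b, Ms4a1 and Il7r were under the filter. S100a9, a calcium-binding protein of neutrophils and monocytes, read 220.3 and 127 and then 21.1 and 17.1, and its partner S100a8 65.6 and 48.6 and then 9.28 and 12.3. The third measured neutrophil marker, Csf3r, differed by 0.08 and -0.22. The 5 neutrophil markers with a probe set, dim ones included, summed to 311 and 197 after sham and 50.7 and 43.6 at day 56. Of 4 measured red cell markers, 3 were below their own sham in both conditions, beside 51.2% of all genes, and none by at least 1 in both. The 4 had a summed intensity of 6682 and 5869 after sham and 4774 and 2297 at day 56. Hbb, a globin chain, read 6298 and 5606 and then 4545 and 2219, and Alas2, the first enzyme of haem synthesis in red cells, 304 and 219 and then 171 and 34.7. How far these cell types, or the blood a piece of tissue held, share in the lower interferon and presentation genes was not tested.

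Over the list of inflammation and acute phase genes, 15 of 27 were below their own sham in both conditions, near the 51.2% of all genes, and 3 were above it in both. Its members Ccl2 and Il1b were lower by at least 1 in both. Ccl2, the chemokine that draws monocytes, read 133 and 225 after sham and 30.5 and 57.6 at day 56, and Ccl6, a chemokine of myeloid cells outside the list, 608 and 658 and then 112 and 187. Il1b, the cytokine of the inflammasome, read 37.1 and 33.4 and then 6.67 and 7.98, under the median intensity of every array at day 56. Also outside the list, Cxcl9, a chemokine induced by interferon gamma, read 108 and 137 and then 36.4 and 30.4. Cebpd, an acute-phase transcription factor, read 263 and 285 and then 92.4 and 50.1, a difference of -1.77 ± 0.32 with an adjusted p of 0.0877 in limma.

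Immediate early genes, the transcription factors that answer a stimulus within minutes, had a median of -0.39 in non-diabetic and -0.60 in diabetic rats, beside -0.32 and -0.07 over all genes. Of 20 measured, 13 were below their own sham in both conditions, beside 51.2% of all genes, 2 were above it, and none was lower by at least 1 in both. Atf3 read 61.8 and 66.6 after sham and 22.1 and 28.0 at day 56, a difference of -0.97 ± 0.22 (limma, adjusted p = 0.13). Klf2, a factor of endothelium and lymphocytes, read 1215 and 1189 and then 804 and 288. Glucocorticoid-responsive Tsc22d3 read 1387 and 1178 and then 716 and 763.

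Rbis and Mrps18c, of the 10 genes lowest by rule, and a few others of the 97 that were picked after their values were seen encode small proteins of basic cell machinery. Mrps18c, a protein of the mitochondrial ribosome, read 409 and 530.4 after sham and 123 and 166 at day 56. Polr2k, a small subunit shared by the RNA polymerases, read 795 and 918 and then 256 and 329.5, and Lsm5, of the ring that binds U6 RNA, 318 and 439 and then 98.1 and 164. Rbis, a factor of ribosome assembly, read 636 and 733 and then 145 and 205, a difference of -1.89 ± 0.45 (limma, adjusted p = 0.14). All 20 measured cytosolic ribosomal proteins were below their own sham in both conditions, beside 51.2% of all genes, with a median of -0.59 and -0.44 and none at 1 or more in both. Rps3 read 3385 and 3608 and then 1634 and 2289.9. After quantile normalization the list's median was -0.30, beside -0.49 without it. Of 26 measured genes of oxidative phosphorylation, 17 were below in both conditions and 1 above, with a median of -0.27 and -0.08, close to that of all genes.

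**Figure D2:**
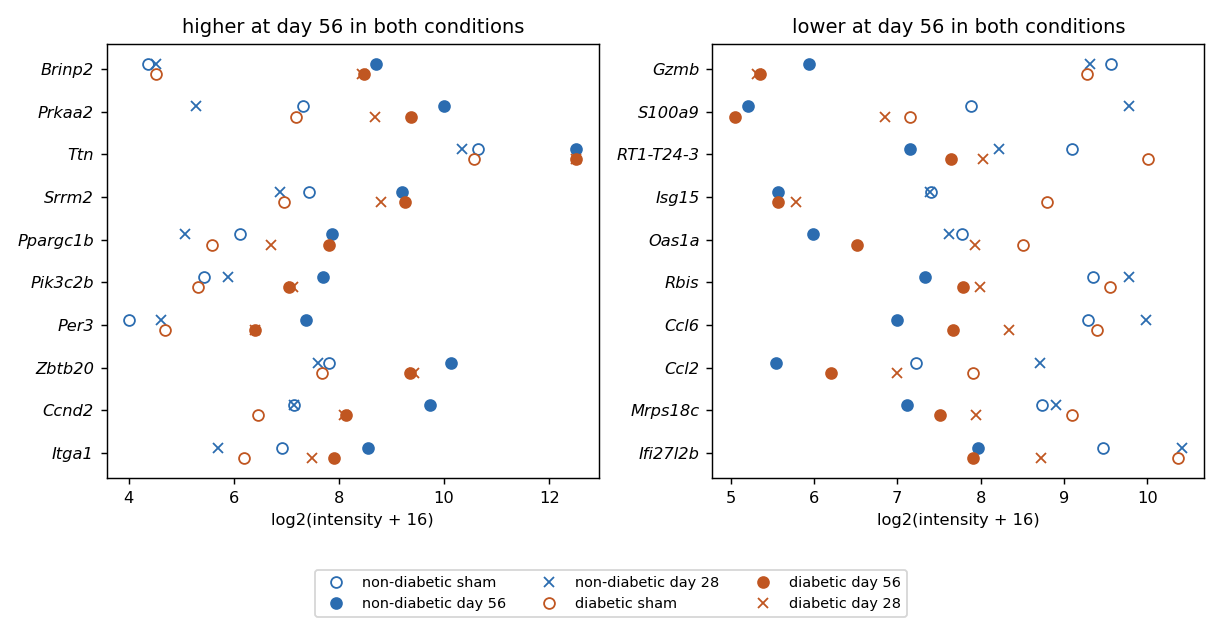
Level, as log2(intensity + 16), of 10 genes per direction, those with the largest smaller difference of the pairs, with sham as open circles, day 56 as filled circles and day 28 as crosses, non-diabetic in blue and diabetic in orange. The gap between sham and day 56 chose these 20 genes and is no finding. The diabetic cross lies nearer the diabetic day 56 circle than the sham circle in most, while the non-diabetic cross lies nearer sham or beyond it.

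Several of the 44 higher genes encode large proteins of the sarcomere and cytoskeleton. Those below other than Ttn and Flnc stand on no list and were picked after their values were seen. Ttn, the spring that spans the sarcomere from Z-disc to M-band, read 1595 and 1510.5 on the sham arrays and 5841 and 5855 at day 56, a difference of 1.90 ± 0.45 (limma, adjusted p = 0.14, 0.00048 without the day 28 pair, and 1.55e-29 to 0.859 over all alternatives). At day 28 it read 1287 on the non-diabetic and 5824 on the diabetic array. Cmya5, a large protein that tethers the sarcoplasmic reticulum at the Z-disc, read 742 and 579 and then 1689 and 1696. Plec, the linker of intermediate filaments, read 354 and 299.8 and then 947 and 716, and Flnc, a filamin of the Z-disc, 224 and 248 and then 507 and 514. Palld, an actin-bundling protein, read 65.3 and 52.5 and then 220.0 and 255. In each of these, both day 56 values exceeded both sham values, which follows largely from their choice among the 44.

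Sarcomere genes did not share one size of difference. Of 17 measured adult contractile and Z-disc genes, 8 were above their own sham in both conditions and 3 below, beside 18.2% and 51.2% of all genes. The list's medians were 0.05 and 0.20, and Ttn alone reached 1 in both. Myom1, which crosslinks myosin at the M-band, differed by 0.82 and 1.13, and Actn2, the actin crosslinker of the Z-disc, by 0.50 and 0.79. Of thin- and thick-filament genes, Tnni3, the inhibitory troponin, differed by -0.22 and -0.05. Myh6 and Myh7, the fast and slow myosin heavy chains, differed by 0.14 and 0.40 and by 0.20 and 0.28. Mybpc3, also of the thick filament, differed by 0.45 to 0.71 over all alternatives.

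In calcium handling, Ryr2, the channel that releases calcium from the sarcoplasmic reticulum, read 1833 and 1536 after sham and 3753 and 3574 at day 56, a difference of 1.12 ± 0.27 (limma, adjusted p = 0.145). Cacna2d1, an auxiliary subunit of the L-type calcium channel, read 73.5 and 97.6 and then 178 and 204. Slc8a1, the sodium-calcium exchanger, read 586 and 543 and then 837 and 968. Of 16 measured members 11 were above their own sham in both conditions and 3 below, beside 18.2% and 51.2% of all genes, with medians of 0.22 and 0.29. The pump Atp2a2, which returns calcium to the store, read 6922 and 5879.6 and then 6905 and 7088, and its inhibitor Pln 6398 and 6725 and then 5907 and 6681. Their adjusted p-values were 0.683 and 0.861 in limma, and their 4 values overlapped between sham and day 56.

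Prkaa2 and Ppargc1b, both of energy supply, were among the 10 highest genes by rule, while no member of the fatty acid oxidation or glucose lists was higher or lower by at least 1 in both. Prkaa2, the catalytic subunit of AMP-activated kinase that prevails in muscle, read 144 and 129 after sham and 1002 and 642 at day 56, a difference of 2.43 ± 0.76 (limma, adjusted p = 0.203, 0.00108 without the day 28 pair, and 1.12e-18 to 0.882 over all alternatives). Its day 28 values were 22.9 and 395. Ppargc1b, a coactivator of mitochondrial genes, read 53.5 and 32.1 and then 217 and 208. Genes of fuel entry differed less: Cpt1b, which admits fatty acids to the mitochondrion, differed by 0.29 and 0.31, and Slc2a4, the insulin-responsive glucose carrier, by 0.14 and -0.08. The 34 measured genes of fatty acid oxidation had medians of -0.23 and 0.09. Of them 7 were above and 11 below in both, beside 18.2% and 51.2% of all genes. Pdk4, which blocks pyruvate oxidation, read 313 and 2937 after sham and 439 and 3685 at day 56, so that the diabetic arrays exceeded the non-diabetic ones at both.

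Ccnd2, Pik3c2b and Itga1 were also among the 10 highest genes. Ccnd2, a cyclin of the G1 phase, read 125 and 71.9 after sham and 830.0 and 263 at day 56. Pik3c2b, a lipid kinase, read 27.0 and 23.7 and then 192 and 116, a difference of 2.00 ± 0.37 with an adjusted p of 0.0937 in limma. Itga1, the integrin chain that binds collagen, read 105 and 57.3 and then 360.0 and 223, and Bmpr2, the receptor of bone morphogenetic proteins, 52.4 and 29.3 and then 167 and 105. Vegfa, the main growth factor of blood vessels and the only one of 22 measured angiogenesis genes to reach 1 in both, read 636 and 590.1 and then 1361 and 1345, with 350.1 and 1272 at day 28. Its co-receptor Nrp2 read 48.0 and 30.8 and then 109 and 66.7. Of that list 6 genes were above and 10 below their own sham in both conditions. Of 12 measured endothelial markers 0 were above and 7 below in both, beside 18.2% and 51.2% of all genes. Emcn, a sialomucin of capillaries and veins, was the lowest of them at 603 and 399 and then 294 and 232, while Kdr, the main receptor of Vegfa, read 873 and 839 and then 765 and 852.

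Srrm2 and Zbtb20, nuclear proteins, were among the 10 highest genes as well, and Hipk2, Nfat5 and Slc6a6 were picked from the 44 after their values were seen. Srrm2, a scaffold of nuclear speckles, read 156 and 108 after sham and 568 and 594 at day 56, Zbtb20, a zinc-finger repressor, 208 and 188 and then 1104 and 641, and Hipk2, a nuclear kinase, 98.9 and 154 and then 374 and 452. Nfat5, the factor that answers osmotic stress, read 67.3 and 53.6 and then 234 and 249. One of its known targets, the taurine carrier Slc6a6, read 154 and 213 and then 344 and 753, a difference of 1.42 ± 0.26 with an adjusted p of 0.0913 in limma. Brinp2, best known from neurons, had the largest smaller difference, with 4.60 and 6.81 after sham and 403 and 338 at day 56. Those sham values lay under the median intensity of their arrays, 30.3 and 30.0. Brinp2 read 57.9 and 71.9 at day 1, and 2.83 and 0.00834 at day 7. At day 14 it read 254 and 7.47, and at day 28 6.87 and 329.7. Its difference of 4.15 ± 1.13 had an adjusted p of 0.176 in limma.

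Circadian clock genes were uneven. Of 17 measured clock genes 4 were above their own sham in both conditions and 2 below, beside 18.2% and 51.2% of all genes. Per3 and Bhlhe40 reached 1 in both, beside 0.414% of all genes. The list's median over both pairs was 0.09, and 0.50 after quantile normalization. Per3, a repressor of the clock loop, read 0.00620 and 9.85 after sham and 149 and 68.0 at day 56. Its sham values lay under the median intensity of their arrays, 30.3 and 30.0. Bhlhe40, another repressor, read 51.7 and 45.8 and then 129 and 113. Per2 read 79.7 and 160.0 and then 161 and 255, so that the diabetic sham and the non-diabetic day 56 values nearly met. Nr1d1, the nuclear receptor that silences Arntl, read 28.9 and 123 after sham and 283 and 72.3 at day 56, a difference of 2.74 in non-diabetic and -0.66 in diabetic rats. The labels state no hour of day for tissue collection.

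Of genes that report on hypertrophy, 14 were measured. Of these, 8 were above their own sham in both conditions and 1 below, beside 18.2% and 51.2% of all genes. The list's medians were 0.28 and 0.52, and Flnc alone reached 1 in both. Nppb, the B-type natriuretic peptide of stretched ventricle, read 2542 and 2044 after sham and 3667 and 3019 at day 56, a difference of 0.54 ± 0.21 (limma, adjusted p = 0.259). Nppa, its atrial relative, read 2229 and 5725 and then 3773 and 7125, with an adjusted p of 0.397 in limma and an overlap between diabetic sham and non-diabetic day 56. Myocd, a coactivator of muscle genes, read 42.3 and 18.6 and then 78.5 and 70.9, and Gata4, a factor of cardiac growth, 349.7 and 355 and then 507 and 588. From the natriuretic list, Npr2, the receptor of the C-type peptide, read 93.3 and 98.6 and then 145 and 172. In all of these but Nppa, both day 56 values exceeded both sham values. Those genes have the smallest p-values of their lists in limma, so that this follows in part from how they were chosen.

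Basement membrane genes had the highest median of the 30 lists when both pairs were averaged, with 0.48 in non-diabetic and 0.65 in diabetic rats. Of 14 measured, 12 were above their own sham in both, beside 18.2% of all genes, and none by 1 or more in both. Against the same sham arrays the list's median was 0.92 at day 14 and 0.48 at day 28. Against the mean of those days, day 56 had a median of -0.23, beside -0.23 over all genes. Hspg2, the proteoglycan perlecan, read 219 and 193 after sham and 432 and 414 at day 56, a difference of 0.99 ± 0.25 (limma, adjusted p = 0.162). Lamb2, a laminin chain, read 669 and 814 and then 1090.2 and 1925. Sparc, which binds collagen type IV, read 1483 and 1183 and then 2343 and 1804.

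Col1a1, the chain of the main fibrillar collagen, was higher in both conditions, with 273 and 214 after sham and 651 and 979.5 at day 56, a difference of 1.66 ± 0.60 (limma, adjusted p = 0.24). Its day 28 values ran the other way from most higher genes, with 2108 on the non-diabetic and 371 on the diabetic array. Col3a1, of the finer fibrils, read 1552 and 1069 and then 2135 and 2712, and Col5a1, which sets fibril width, 124 and 108 and then 246 and 204. Of 16 measured fibrillar collagen and crosslinking genes 8 were above in both conditions, beside 18.2% of all genes, with medians of 0.01 and 0.61. Timp4, the cardiac inhibitor of matrix proteases, read 550.1 and 559 and then 304 and 248, a difference of -0.97 ± 0.27 (limma, adjusted p = 0.185). Tcf21, a factor of resident fibroblasts, read 165 and 186 and then 54.3 and 79.4. It was the lowest of 13 measured fibroblast markers when both pairs were averaged, and Col1a1 was the highest. Of the 13, 3 were above their own sham in both conditions and 3 below, beside 18.2% and 51.2% of all genes. The medians of the 13, non-diabetic first, were -0.57 and 0.25.

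Medians of matricellular and scar genes had opposite signs in the conditions, a difference that passed no test. The 18 measured matricellular and microfibril genes had a median of -0.30 in non-diabetic and 1.01 in diabetic rats, and the 9 measured markers of infarct border and scar -0.24 and 1.40. Above their own sham in both conditions were 4 of the 18 and 1 of the 9, and below it 1 of each. Over all genes the shares above and below were 18.2% and 51.2%. Postn, which organises new collagen, read 58.8 and 55.0 after sham and 43.4 and 171 at day 56. Ccn2, a matricellular target of TGF-beta, read 735 and 575 and then 607 and 1796, and Thbs4, a thrombospondin of muscle and tendon, 51.0 and 11.1 and then 22.0 and 144. At day 28 the order of conditions was the reverse, with Postn at 963 and 128. The 10 scar markers with a probe set summed to 425 and 338 after sham, 324 and 1171 at day 56 and 2568 and 494 at day 28. These sums include Chad, which was under the filter. How much border tissue a piece of remote wall held was not tested.

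**Figure D3:**
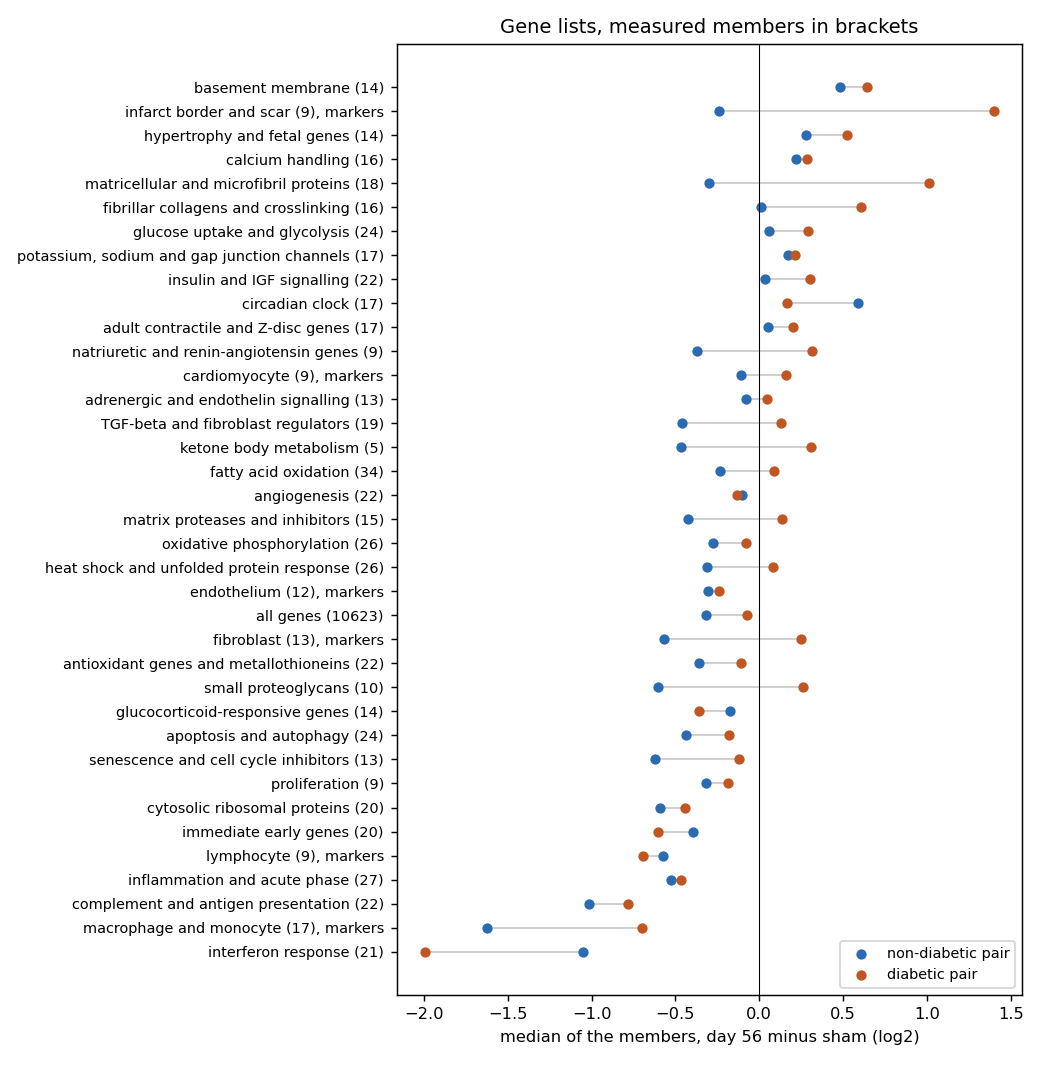
Median day 56 minus sham difference, log2 scale, over the measured members of 30 gene lists, 6 marker lists and all genes, for the non-diabetic pair in blue and the diabetic pair in orange, with members measured in brackets. Interferon response (-1.05 and -1.99) and macrophage markers (-1.62 and -0.70) lie lowest, basement membrane (0.48 and 0.65) is high in both pairs, and scar markers (-0.24 and 1.40) have opposite signs in the pairs.

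No test separated the conditions. The diabetic change minus the non-diabetic change, fitted in limma with 3 residual degrees of freedom, passed for 0 of 18625 probe sets (0%), with 230 at an unadjusted p under 0.05, which does not show that the conditions responded alike. Opposite differences of at least 1 were seen in 9 genes. Of those, 2 were higher in the non-diabetic pair: Chrna1, a subunit of the muscle acetylcholine receptor, read 39.5 and 44.7 after sham and 111 and 9.09 at day 56, and Cwc25, a splicing factor, 8.09 and 44.0 and then 39.9 and 5.41. The other 7 were higher in the diabetic pair. Among them Gsta1, a glutathione transferase, read 789 and 533 and then 128 and 1385, Spp1, the cytokine osteopontin, 52.2 and 80.2 and then 10.9 and 237, and Nfil3, a clock-linked repressor, 146 and 44.7 and then 51.4 and 117. Myl7, the light chain of atrial myosin, read 157 and 43.9 and then 37.9 and 222, and summed atrial markers were 3271 and 7075 after sham and 4548 and 9296 at day 56.

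Remaining genes looked up for heart failure differed little or unevenly. Timp1 differed by -1.16 and 0.33, Tgfb2 by 0.33 and 0.74, and Lox, the collagen crosslinker, by -0.24 and -0.12, with another of its probe sets of opposite sign. Ace, which makes angiotensin II, differed by -0.37 and 0.43 and its receptor Agtr1a by -0.77 and -0.21. The potassium channel gene Kcnd2 and its partner Kcnip2, which has another probe set of opposite sign, differed by 0.21 and -0.00 and by -0.02 and -0.04, and skeletal actin Acta1 by 0.44 and -0.12. Ucp3, a mitochondrial uncoupling protein, differed by -0.19 and 0.49. Adjusted p-values of these 9 genes in limma were 0.495 to 0.974.

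Day 56 was set against the mean of day 14 and day 28 to see it apart from the sham arrays. With limma, 0 of 18625 probe sets (0%) passed, 4478 had an unadjusted p under 0.05, and leaving out the diabetic day 56 array gave 23. In this contrast, Prkaa2 was higher by 2.82, Vegfa by 1.71 and Ttn by 1.64, while C1qa stood at -2.17, Cebpd at -1.84 and Il1b at -1.70. Col1a1 turned, at -0.80, and Postn stood at -2.11. Interferon genes had a median of -0.72 and macrophage markers of -1.53, beside -0.23 over all genes.

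The arrays of day 28, which played no part in choosing the genes, divided along the same genes. The 44 higher genes had a median diabetic minus non-diabetic difference of 1.08 there, 43 were above 0 and 25 reached 1, as 3.14% of all genes did. For the 97 lower genes the median was -1.16, with 88 below 0 and 54 at -1 or less, as 8.72% of all genes were. At sham the medians were -0.14 and 0.16, at day 14 0.00 and 0.12, at day 7 -0.13 and 0.12 and at day 1 -0.16 and -0.33. Set against their own sham arrays, which the day 56 differences share, the 44 genes had a day 28 median of -0.23 in non-diabetic and 1.15 in diabetic rats, and the 97 genes 0.16 and -1.06. The 44 genes were above sham early as well, with medians of 0.68 and 0.74 at day 1 and 0.90 and 1.05 at day 7. Over all genes those medians were 0.14 and 0.05, and 0.15 and 0.18. At day 14 the 44 genes stood at 0.37 and 0.42. The 97 genes had medians of -0.05 and -0.60 at day 1, 0.21 and 0.34 at day 7, and -0.15 and -0.20 at day 14.

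**Figure D4:**
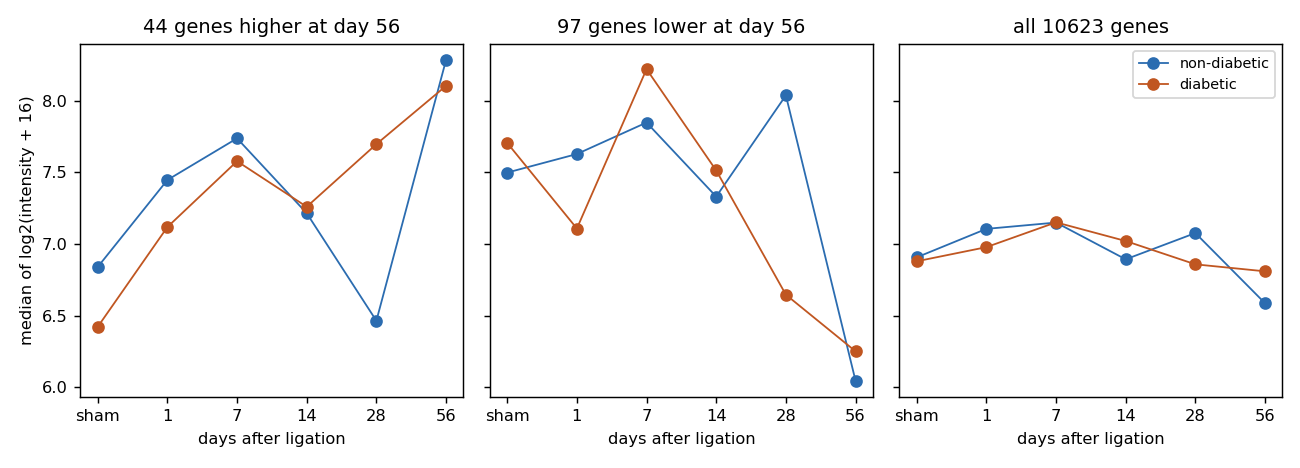
Median level, as log2(intensity + 16), of the 44 higher genes, the 97 lower genes and all 10623 genes on each of the 12 arrays, 1 point per array, against days after ligation at even spacing. The diabetic day 28 point of the higher genes (7.70) and of the lower genes (6.65) lies towards day 56, the non-diabetic points (6.46 and 8.04) towards or beyond sham.

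Higher genes were long and lower genes short in the genome. The median span from start to end of the gene (RefSeq, GRCr8) was 80.6 kb for the 44 higher genes, 6.67 kb for 96 of the 97 lower genes and 23.0 kb over 10616 genes. Across 10 equal groups of all genes by span, the median day 56 minus sham difference went from -0.49 in the shortest to -0.09 in the longest in the non-diabetic pair and from -0.33 to 0.13 in the diabetic pair. Spearman's rho across genes was 0.21 and 0.31, and it was 0.21 for the diabetic minus non-diabetic difference at day 28, 0.20 at day 14 and -0.087 between the sham arrays. Genes of an array are not independent, and no p is given. Poly-A control dap, an RNA added from outside, read 818 and 473 on the sham arrays, 645 and 332 at day 56, and 896 and 295 at day 28. The part of gene length and of RNA handling in the differences above was not tested.

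**Figure D5:**
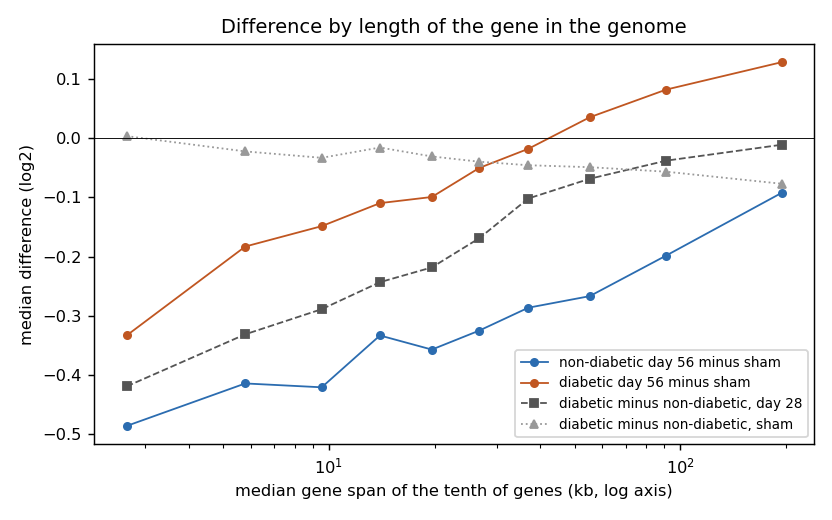
Median log2 difference in 10 equal groups of genes ordered by their span in the genome (x axis in kb, log scale) for day 56 minus sham in the non-diabetic (blue) and diabetic (orange) pair, for diabetic minus non-diabetic at day 28 (grey squares) and at sham (grey triangles). The first 3 lie higher in the longest than in the shortest group (-0.09 against -0.49, 0.13 against -0.33, -0.01 against -0.42), and the sham line does not (-0.08 against 0.00).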

How the data were processed

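The authors deposited 1 linear intensity per probe set and array, from Affymetrix rat arrays. The submitters' processing notes name Expression Console and PLIER, and the labels record neither a version nor a scaling step. Of 31099 probe sets 57 were controls; 20826 of the rest had 1 gene symbol in the platform annotation. A gene is its probe set with the highest mean. No scaling was added. limma 3.58.1 (R 4.3.3) fitted 6 time points plus diabetes to 12 arrays, with variances following the mean. Whether pools of a group differ cannot be seen with 1 array each, and the number of arrays limits the precision. Genes were named by rule: 10 per direction by the smaller of both differences, up to 4 per list by p, 24 looked up, and opposite movers; other genes of the 141 were chosen after their values were seen. Members and lists were chosen with earlier results of these data known. Promoter letters were searched in all same-way genes because none passed the test. Scripts were tested on simulated data. Alternatives were other offsets, scalings, filters, thresholds and arrays left out.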

Additional observations from a re-analysis of the deposited data

Results flagged for a closer look

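Data outside the comparison carried its pattern. On the day 28 arrays, which chose no gene, the diabetic minus non-diabetic difference had a median of 1.08 (log2) over the 44 genes higher at day 56 and of -1.16 over the 97 lower ones. In the sham pair, whose arrays took part in choosing the genes, the medians were -0.14 and 0.16. The cause was not tested.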

How the results depend on the processing

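Of day 56 minus sham, 0 probe sets passed; an offset of 1 gave 2, no filter on dim probe sets 10, and the 4 arrays alone, with 1 residual degree of freedom, 2820. Leaving out arrays or pairs gave 0 to 762, the latter without the day 28 pair, and 6 without the diabetic day 56 array. Against days 14 and 28, an offset of 1 gave 1, no filter 11, and leaving out arrays 0 to 23. The test between conditions gave 0 in all alternatives run. Of the 141 same-way genes, an offset of 1 gave 309 (67 higher, 242 lower), an offset of 64 gave 47 (20 and 27), 1.5-fold 962 (197 and 765) and 4-fold 4 (2 and 2). Quantile normalization gave 62 higher and 90 lower, equal array medians 40 and 107. Fewer genes are counted with a larger offset or threshold by construction; other causes were not tested. Of 206 named genes none passed the test with all arrays, and 49 did without the day 28 pair. Named genes whose difference crossed 0, none of them called, numbered 1 with an offset of 1, 2 with 64, 6 with quantile normalization and 9 to 14 with an array left out. No paired analysis was possible because each group has 1 array and the replicate number only names it. Single arrays, dim genes and a sham of another age limit every value.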
